A study of Mus musculus with 6 samples.

Results

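The genes described here encode nuclear subunits of mitochondrial complexes II to V, measured on expression arrays of mouse brain. They were chosen by name, as every probe whose platform gene symbol begins with Uqcr, Cox4 to Cox8 or Atp5, or is Sdha, Sdhb, Sdhc or Sdhd. The rule found 43 genes of 14776 with a probe, on 49 of the 24048 probes. Complex II had 5 probes of 3 genes, complex III 8 probes of 8 genes, complex IV 19 probes of 16 genes and complex V 17 probes of 16 genes. No probe carried the symbol Sdha, and that gene was not analysed here.

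The study asked which genes differed in the brain when mice drank oil palm phenolics (OPP), a water-soluble phenolic extract of the oil palm. The OPP group was 3 male BALB/c mice, an inbred strain, fed a normal diet for 6 weeks with OPP at 1500 ppm gallic acid equivalent as their fluid. The control group was 3 male BALB/c mice on the same diet with distilled water. Mice of both groups were 12 weeks old at the end, and each brain was hybridized to 1 Illumina MouseRef-8 array. The methods state that samples standing apart in a clustering were removed before the 3 arrays of each group were chosen, so the spread within a group is that of selected brains. The methods put as many mice in a cage as each group held, and OPP was given as the drinking fluid. Each group would thus fill 1 cage of its own, although the sources do not name the cages. Cage and treatment can then not be told apart.

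Oxidative phosphorylation moves electrons from food-derived carriers along complexes in the inner mitochondrial membrane and uses the energy to make ATP. Complex II, succinate dehydrogenase, also works in the citric acid cycle and passes electrons to ubiquinone. Complex III passes them from ubiquinol to cytochrome c, complex IV passes them to oxygen, and complex V, ATP synthase, makes ATP as protons flow back. Neurons depend heavily on this supply for ion pumping and synaptic transmission. Several complex IV subunits come in tissue isoforms encoded by separate genes.

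Promoter sequence is shown first, because transcription factors such as NRF1 and GABPA are textbook regulators of these genes. RefSeq promoter windows (build GRCm38.p6, 250 bases before to 50 bases after the start of the gene) were matched for 33 of the 43 genes. Each window was searched on both strands for the NRF1 core GCATGCGC, the ETS/GABPA core CCGGAAG, the YY1 core AAGATGGC, the Sp1 box GGGCGG, the ERR element AAGGTCA and the TATA box TATAAA. The 250 bases before the start are printed for Sdhb and Cox6a1, whose windows held 3 of the motifs, and for the isoform pair Cox6b1 and Cox6b2. They are also printed for Atp5g3, which with Cox6b2 was lower in OPP brains at an unadjusted p below 0.05. The windows of Sdhd, Atp5e, Atp5k and Atp5md held 3 motifs too and are not printed. In Sdhb the ETS/GABPA core lies at position 7, after the start and outside the printed bases. Capitals mark a motif match on either strand, and overlapping matches run together.
Sdhb, chr4:140961021-140961270, plus strand: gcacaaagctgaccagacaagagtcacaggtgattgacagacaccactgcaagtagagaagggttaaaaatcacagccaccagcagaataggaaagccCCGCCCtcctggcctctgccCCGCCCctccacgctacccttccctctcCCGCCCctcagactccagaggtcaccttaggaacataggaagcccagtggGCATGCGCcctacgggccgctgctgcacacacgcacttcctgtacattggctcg
Cox6a1, chr5:115348959-115349208, minus strand: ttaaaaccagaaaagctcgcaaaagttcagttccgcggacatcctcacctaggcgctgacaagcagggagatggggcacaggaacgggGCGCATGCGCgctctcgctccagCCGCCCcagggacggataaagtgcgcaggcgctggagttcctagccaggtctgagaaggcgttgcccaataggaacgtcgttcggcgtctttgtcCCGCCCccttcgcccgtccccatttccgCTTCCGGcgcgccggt
Cox6b1, chr7:30626115-30626364, minus strand: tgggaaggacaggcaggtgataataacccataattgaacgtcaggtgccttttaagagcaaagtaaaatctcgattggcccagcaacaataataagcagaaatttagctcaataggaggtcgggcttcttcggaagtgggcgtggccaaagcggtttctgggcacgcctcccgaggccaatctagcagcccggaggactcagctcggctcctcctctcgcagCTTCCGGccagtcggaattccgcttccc
Cox6b2, chr7:4753095-4753344, minus strand: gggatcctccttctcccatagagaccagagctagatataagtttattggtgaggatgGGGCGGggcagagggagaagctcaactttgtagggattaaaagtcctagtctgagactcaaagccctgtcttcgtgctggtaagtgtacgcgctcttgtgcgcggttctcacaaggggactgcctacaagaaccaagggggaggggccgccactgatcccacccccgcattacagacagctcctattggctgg
Atp5g3, chr2:73911327-73911576, minus strand: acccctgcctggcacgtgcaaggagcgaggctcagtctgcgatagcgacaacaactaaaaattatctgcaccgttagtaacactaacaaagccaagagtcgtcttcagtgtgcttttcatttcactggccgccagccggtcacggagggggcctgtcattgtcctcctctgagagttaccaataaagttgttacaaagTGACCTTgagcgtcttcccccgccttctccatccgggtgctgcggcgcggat

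The NRF1 core was in 6 of the 33 windows (18.2%, against 2.8% of all 27025 genes with a window), those of Sdhb, Uqcr11, Uqcrc1, Cox6a1, Atp5g2 and Atp5k. The ETS/GABPA core was in 11 windows (33.3%, against 9.14% of all), and the ERR element in 4 (12.1%, against 4.65%). The YY1 core was in 2 (6.1%, against 2.87%) and the Sp1 box in 13 (39.4%, against 35.9%). The letters of the TATA box were in 3 (9.1%, against 14.2%), all of genes whose probes were not tested, Cox7b2, Cox8b and Atp5md. They lay on the opposite strand at position -221 in Cox7b2 and -65 in Atp5md, and after the start at position 5 in Cox8b. In Atp5g3 the capitals are an ERR element read on the opposite strand, at position -52 from the start. In Cox6b1 they are an ETS/GABPA core, and in Cox6b2 a Sp1 box. A match describes letters in a window and is not a measured binding site.

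A probe was tested where its mean detection level, the share of negative control probes it outshone, was above 0.99 in at least 1 group. Of the 49 member probes 34 passed (69.4%, against 31.6% of all probes), which covered 32 genes. Of the member probes 33 were above background in all 6 brains and 11 in none. The genes with no tested probe were Uqcrfs1 and Uqcrq in complex III, Cox4i2, Cox7a1, Cox7b, Cox7b2 and Cox8b in complex IV, and Atp5e, Atp5k, Atp5md and Atp5pb in complex V. A dim signal says only that the probe was not well above background, since Uqcrfs1 (the Rieske iron-sulfur protein) and Atp5e (the epsilon subunit) are parts of complexes that every respiring cell uses. The plot of intensities shows this gap between bright and dim probes in both groups.

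**Figure D1:**
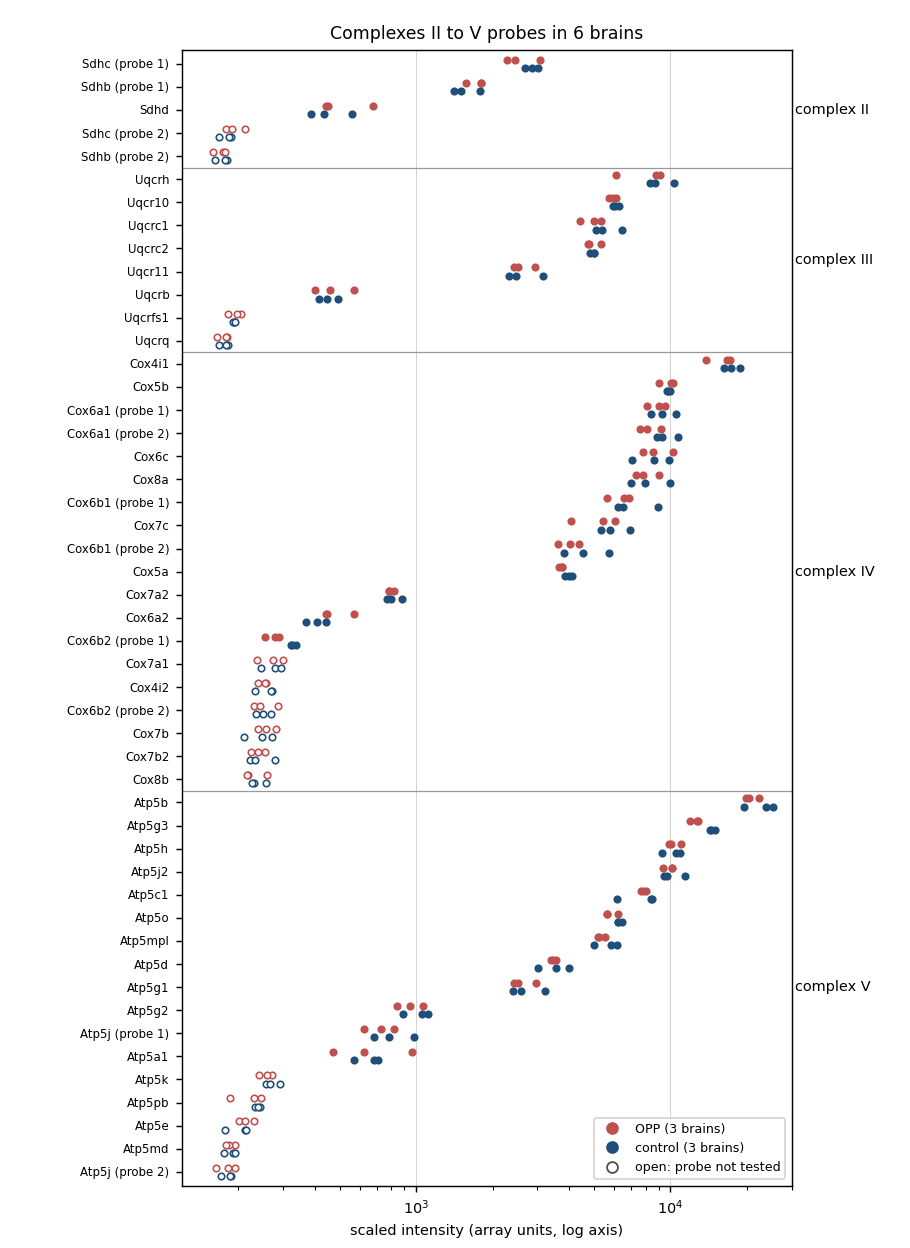
Scaled intensity (log axis) of each of the 49 member probes, one row a probe, grouped by complex. Red points are the 3 OPP brains and blue points the 3 control brains; open points mark the 15 probes that were not tested. The groups lie over each other in most rows, and Atp5g3 and the brighter probe of Cox6b2 are among the rows in which they part.

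No member probe differed between OPP and control brains after adjustment. By limma with Benjamini-Hochberg adjustment over all 7611 tested probes, 0 of 34 member probes had an adjusted p below 0.05, against 1 of 7611 in all (0.0131%). The lowest adjusted p of a member was 0.987. At an unadjusted p below 0.05, 0 members were higher in OPP brains (1.71% of all tested probes were) and 2 were lower (5.88% of members, against 2.21% of all). The 2 were Cox6b2 and Atp5g3. Cox6b2 passed the detection filter only through the control brains. With detection required in all 6 brains the count lower was 1, Atp5g3, against 142 of 6512 probes. Every OPP brain lay above every control brain in 1 member probe (2.94%, against 4.31% of all), and below in 4 (11.8%, against 5.18%). Cox6b2 is among these 4 too, so the count below includes a probe that entered through the control brains. With 3 brains in each group the smallest exact two-sided permutation p is 0.1, so single genes were judged by limma alone.

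Taking the brightest tested probe of each gene, OPP brains averaged above control brains in 9 of 32 genes and below them in 23. The share below was 71.9%, against 50.2% of all tested probes. This sets genes beside probes, and the probes were not matched to the members for intensity. With quantile normalization 16 genes lay above 0 and 16 below. Without scaling 17 lay above 0 and 15 below, but there the median of all tested probes moved to 0.06, and 23 of 32 genes again lay below that median. The median log2 difference, OPP minus control, was -0.05 over the 32 genes and -0.00 over all tested probes. By complex the median was 0.15 for complex II (3 genes), -0.03 for III (6 genes), -0.08 for IV (11 genes) and -0.07 for V (12 genes). Leaving out 1 brain turned the median of complex II to -0.02 (without OPP 3), and the medians of IV and V moved to -0.15 and -0.13 without control 3 and as near to 0 as -0.04 in both (IV without OPP 3, V without OPP 2). The 95% intervals of the single genes reached from -0.59 at the lowest bound to 0.61 at the highest, and in 25 of 32 genes the interval lay within 0.5 of 0. The SD within groups had a median of 0.155 on the log2 scale, against 0.143 for all tested probes.

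**Figure D2:**
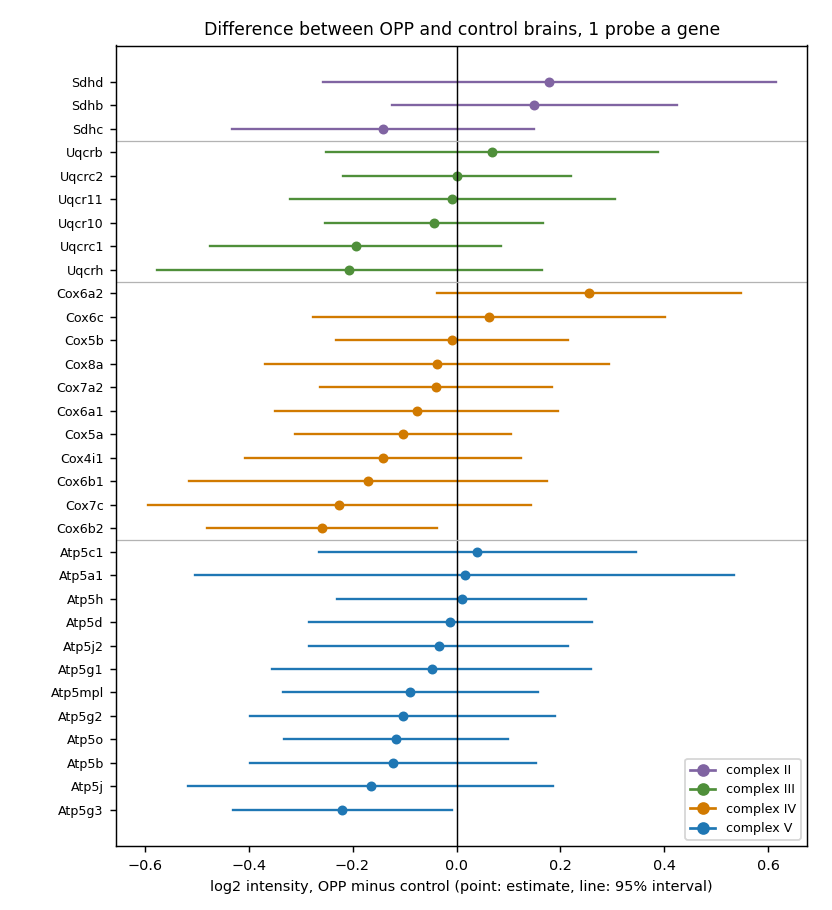
Difference in log2 intensity, OPP minus control, for the 32 tested genes by complex (point, estimate; line, 95% interval from limma; 1 probe a gene). Only the intervals of Cox6b2 and Atp5g3 leave out 0, both on the lower side, before adjustment.

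Before the genes are taken one by one, 2 brains stood out among the members. Control 2 was the highest of the 6 brains in 16 of the 32 genes (50%, against 17.9% of all tested probes). It was the lowest in 5 (15.6%, against 26.4%), Sdhd, Cox6c, Cox7a2, Atp5b and Atp5c1. OPP 3 was the lowest in 13 genes (40.6%, against 18.3%) and the highest in 6 (18.8%, against 23%). These shares too set genes beside probes that were not matched to them for intensity. The mean deviation of the 32 genes from their own means was -0.03, -0.00 and -0.05 in OPP brains 1 to 3, and 0.03, 0.09 and -0.04 in control brains 1 to 3. Control 2 was the highest of the 6 on this measure, and the groups overlapped.

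Control 2 stood apart in other genes too. Its correlation with the other arrays averaged 0.965, against 0.972 to 0.982 for the other 5 arrays. The 5 tested of 6 granulocyte markers had a mean log2 intensity of 8.17, 8.31 and 8.12 in OPP brains, and of 9.07, 12.09 and 9.37 in control brains. S100a8, a neutrophil calcium-binding protein, had an intensity of 387, 479 and 315 in OPP brains and of 1208, 13186 and 1724 in control brains. The 3 tested of 10 cerebellar markers averaged 10.02, 9.94 and 9.58 in OPP brains and 10.99, 9.12 and 10.58 in control brains, so control 2 was the lowest there. The part of either in the members' values was not tested. In bulk brain RNA, fewer cells of a type and less RNA per cell cannot be told apart. Without control 2, 0 of 34 member probes were called in either direction, against 297 higher and 523 lower of 7724 tested probes. Of the 32 genes 12 then lay above 0 and 20 below, with a median of -0.03. Among all tested probes 55.6% lay below 0, and their median was -0.02.

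**Figure D3:**
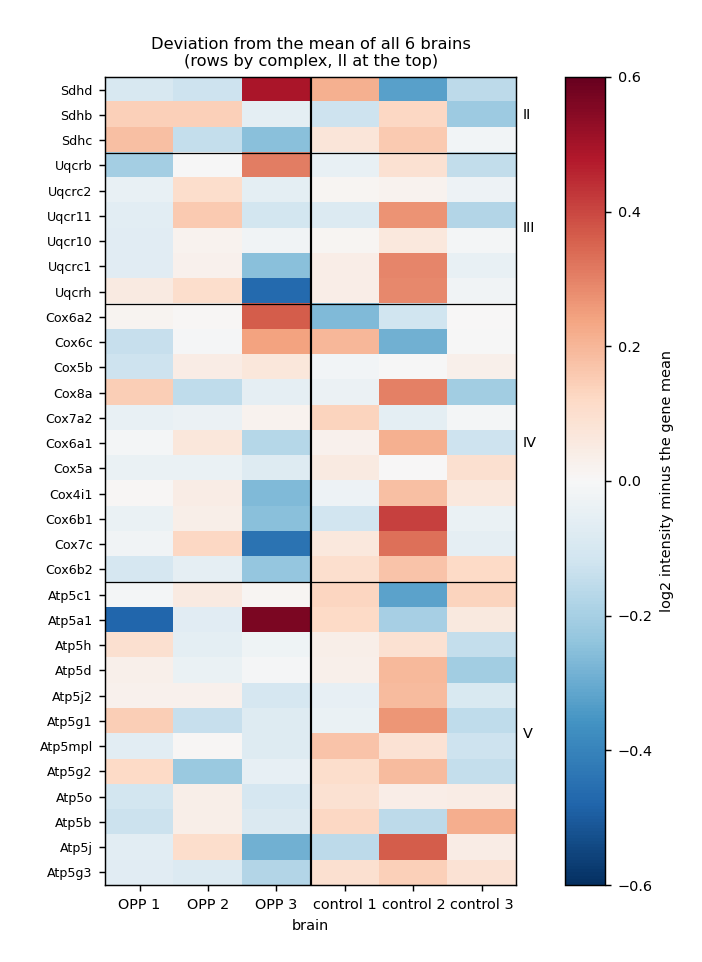
Log2 intensity of each of the 32 tested genes in each brain, minus the gene's mean over the 6 brains (red, above; blue, below; OPP brains left, control brains right; rows by complex). The column of control 2 is red in many rows, with blue in Sdhd, Cox6c and Atp5c1, and that of OPP 3 is blue in Uqcrh and Cox7c and red in Atp5a1 and Sdhd. Atp5a1 is blue in OPP 1.

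Complex II had 3 tested genes. Sdhb, the iron-sulfur subunit, had an intensity of 1804, 1806 and 1568 in OPP brains and of 1499, 1781 and 1404 in control brains. OPP 1 and OPP 2 were the highest brains, but control 2 lay above OPP 3 and the groups overlapped. Between the groups the log2 difference was 0.15 (SE 0.12, 95% interval -0.12 to 0.42, limma adjusted p = 0.987). A dimmer probe of the gene was not above background in any brain.

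Sdhc and Sdhd are the membrane anchors that hold the heme and the quinone site of complex II. Sdhc had an intensity of 3072, 2457 and 2279 in OPP brains and of 2853, 3021 and 2677 in control brains. OPP 1 was the highest brain and the other OPP brains the lowest, so the OPP values enclosed the control values. The log2 difference was -0.14 (SE 0.13, limma adjusted p = 0.987). Sdhd had an intensity of 451, 442 and 678.5 in OPP brains and of 560, 386 and 433 in control brains. OPP 3 alone was high, and the log2 difference of 0.18 (SE 0.19, limma adjusted p = 0.987) was -0.02 without it.

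Complex III had 6 tested genes, and none passed the unadjusted threshold. Uqcrc1, a core protein on the matrix side, had an intensity of 5012, 5345 and 4421 in OPP brains and of 5403, 6431 and 5100 in control brains. OPP 3 was the lowest and control 2 the highest, and OPP 2 lay above control 3. On the log2 scale OPP minus control was -0.19 (SE 0.12, 95% interval -0.47 to 0.09, limma adjusted p = 0.987). Its partner core protein Uqcrc2 had an intensity of 4793, 5324 and 4757 in OPP brains and of 4984, 5022 and 4839 in control brains, and its log2 difference was 0.00 (SE 0.10). The control values of Uqcrc2 all lay inside the OPP range.

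Uqcrh, the hinge protein by which cytochrome c1 meets cytochrome c, had an intensity of 8753, 9083 and 6102 in OPP brains and of 8674, 10308 and 8325 in control brains. OPP 3 was well below the other 5 brains, and OPP 1 and OPP 2 lay within the control range. The log2 difference was -0.21 (SE 0.16, limma adjusted p = 0.987), and -0.02 without OPP 3. Uqcrb, the ubiquinone-binding protein, went the other way in the same brain, with an intensity of 400.2, 460 and 570 in OPP brains and of 446, 491 and 416 in control brains. Its log2 difference was 0.07 (SE 0.14). The small subunits Uqcr10 and Uqcr11 had log2 differences of -0.04 and -0.01.

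Complex IV had 11 tested genes, 2 above 0 and 9 below. Cox6b2, the testis isoform of a subunit on the intermembrane side, had on its brighter probe an intensity of 279.7, 289 and 255 in OPP brains and of 322, 337 and 326 in control brains. Every OPP brain lay below every control brain. The probe was above background in 1 of 3 OPP brains and 3 of 3 control brains, so it entered the test through the controls and the difference lies at the edge of detection. Its log2 difference was -0.26 (SE 0.10, 95% interval -0.48 to -0.04, limma unadjusted p = 0.026, adjusted p = 0.987). Leaving out 1 brain gave unadjusted p-values between 0.030 and 0.082, above 0.05 without control 2, control 3 or OPP 3. Settings that remove background gave larger log2 differences, -0.64 with neqc and -0.73 from the authors' value table. A second Cox6b2 probe, not tested, had an intensity of 230.1, 244 and 285.5 in OPP brains and of 269, 249.6 and 234.5 in control brains, with the groups overlapping.

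Cox6b1, the isoform used in most tissues, had 2 tested probes. The brighter had an intensity of 6557, 6894 and 5649.5 in OPP brains and of 6222, 8948 and 6539 in control brains. The dimmer had an intensity of 4371, 4039.9 and 3601 in OPP brains and of 4538, 5743 and 3812 in control brains. Control 2 was the highest and OPP 3 the lowest on both probes. The log2 differences were -0.17 (SE 0.15) and -0.21 (SE 0.15), both with a limma adjusted p of 0.987, and without control 2 they were -0.01 and -0.06.

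Cox6a1, the general isoform of another small subunit, also had 2 tested probes. One had an intensity of 9029, 9563 and 8094 in OPP brains and of 9287, 10560.2 and 8362 in control brains, with a log2 difference of -0.08 (SE 0.12). The other had an intensity of 8108, 9158 and 7609 in OPP brains and of 9294, 10691 and 8894 in control brains, with a log2 difference of -0.22 (SE 0.12, limma adjusted p = 0.987). Both probes had control 2 highest and OPP 3 lowest. Cox6a2, the heart and skeletal muscle isoform, had an intensity of 446, 443 and 567 in OPP brains and of 368, 406 and 442 in control brains. It was the 1 member in which every OPP brain lay above every control brain, but the nearest brains, OPP 2 at 443.4 and control 3 at 442.3, were nearly level. Between the groups the log2 difference was 0.26 (SE 0.13, 95% interval -0.04 to 0.55, limma adjusted p = 0.987). The difference of Cox6a2 was 0.14 without OPP 3, the highest brain. With background removed it was 0.43 with neqc and 0.44 from the authors' value table.

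The other muscle isoforms were dim. Cox7a1 had an intensity of 237, 301 and 274 in OPP brains and of 279, 294 and 246 in control brains, above background in 1 brain of each group. Cox8b had an intensity of 218, 259 and 216 in OPP brains and of 229.7, 225 and 256 in control brains, above background in none. Cox4i2, known from lung, had an intensity of 238, 256 and 254 in OPP brains and of 233, 270.5 and 269 in control brains, also above background in none. The groups overlapped in all 3 genes, and no fold change is given for them.

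The general isoforms of the same subunits were above background in every brain. Cox4i1 had an intensity of 16682, 17165 and 13857 in OPP brains and of 16280.3, 18847 and 17345 in control brains, with OPP 3 lowest and control 2 highest. Its log2 difference was -0.14 (SE 0.12, limma adjusted p = 0.987), and -0.04 without OPP 3. Cox7a2 had an intensity of 779, 784 and 816 in OPP brains and of 882, 771 and 796 in control brains. Its groups overlapped, with a log2 difference of -0.04 (SE 0.10). Cox8a had an intensity of 8987, 7297 and 7813 in OPP brains and of 7918, 9985 and 7012 in control brains, and its log2 difference was -0.04 (SE 0.15). The signs of Cox7a2 and Cox8a turned under other settings.

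Cox5a, which sits on the matrix side of complex IV, had an intensity of 3753, 3749 and 3654 in OPP brains and of 4005, 3855 and 4117 in control brains. Every OPP brain lay below every control brain, by little, and the spread within groups was the smallest of all members at 0.04 on the log2 scale. The log2 difference was -0.10 (SE 0.09, 95% interval -0.31 to 0.11, limma adjusted p = 0.987). Cox7c, a small membrane subunit, had an intensity of 5448, 6038 and 4069.7 in OPP brains and of 5784, 6944 and 5323 in control brains. OPP 3 was again the low brain, and the log2 difference was -0.23 (SE 0.16, limma adjusted p = 0.987), with -0.06 without OPP 3.

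Cox6c, a further membrane subunit, had an intensity of 7831, 8568 and 10197 in OPP brains and of 9894, 7058 and 8602 in control brains. It ran against most members, with OPP 3 highest and control 2 lowest, and its log2 difference was 0.06 (SE 0.15). Cox5b, the zinc-binding subunit, had a log2 difference of -0.01 (SE 0.10).

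Complex V had 12 tested genes, 3 above 0 and 9 below. Atp5g3, one of the genes for the membrane c ring that turns as protons pass, had an intensity of 12887, 12753 and 11948 in OPP brains and of 14456, 14938 and 14359 in control brains. Every OPP brain lay below every control brain, and the gap between the groups was larger than the range within either. The mean was 12529 ± 508 in OPP brains and 14584 ± 310.2 in control brains (SD, n = 3 each), 0.859 of the control level. On the log2 scale OPP minus control was -0.22 (SE 0.09, 95% interval -0.43 to -0.01, limma unadjusted p = 0.043, adjusted p = 0.987). With quantile normalization it was -0.09 (limma unadjusted p = 0.36), and leaving out any 1 brain gave unadjusted p-values between 0.057 and 0.11.

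The other c-ring genes encode the same mature protein behind different import sequences. Atp5g1 had an intensity of 2950.2, 2419 and 2522 in OPP brains and of 2589.9, 3204 and 2395 in control brains, with a log2 difference of -0.05 (SE 0.14) and overlapping groups. Atp5g2 had an intensity of 1062, 838 and 945 in OPP brains and of 1054, 1118 and 886 in control brains, with a log2 difference of -0.10 (SE 0.13). Neither split the groups as Atp5g3 did, and the difference between the 3 genes was not tested.

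Atp5a1 and Atp5b encode the alpha and beta subunits of the catalytic head. Atp5b had an intensity of 19826, 22272 and 20422 in OPP brains and of 23669.5, 19449.5 and 25227 in control brains. Control 2 was the lowest of the 6, and the log2 difference was -0.12 (SE 0.12, 95% interval -0.40 to 0.15, limma adjusted p = 0.987). It was -0.23 without control 2 and -0.05 without control 3, and turned to 0.04 with quantile normalization and with neqc. Atp5a1 had an intensity of 471, 624 and 967 in OPP brains and of 709.5, 569.7 and 681 in control brains. Its OPP brains were both the lowest and the highest, it had the widest spread of all members at 0.39 on the log2 scale, and its log2 difference was 0.02 (SE 0.23).

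Atp5c1, the gamma subunit of the rotor stalk, had an intensity of 7659, 8015 and 7785 in OPP brains and of 8417, 6177 and 8453 in control brains. Control 2 alone was low, and the log2 difference of 0.04 (SE 0.13) was -0.11 without it. Atp5j, the coupling factor of the outer stalk, had on its tested probe an intensity of 728, 819 and 623 in OPP brains and of 682, 980 and 784 in control brains, with a log2 difference of -0.17 (SE 0.16, limma adjusted p = 0.987). It was -0.03 without control 2. Atp5o, the outer stalk subunit that confers oligomycin sensitivity, was the last of the 4 probes with every OPP brain below every control brain, at 5621, 6199 and 5650.5 in OPP brains and 6462, 6220.3 and 6239 in control brains. Its log2 difference was -0.12 (SE 0.10). The remaining 4 tested genes, Atp5d, Atp5h, Atp5j2 and Atp5mpl, had log2 differences between -0.09 and 0.01.

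Members differed in how they followed each other over the 6 brains, given here as a description since all values share the same 6 arrays. Uqcrc1 and Cox6a1 had the highest median correlation with the other 31 genes, 0.57 and 0.58. Atp5c1, Cox6c and Cox6a2 had the lowest, -0.43, -0.42 and -0.41. Uqcrh and Cox7c went together (r = 0.98), and so did Uqcrh and Cox4i1 (r = 0.96). Sdhd ran opposite to Cox4i1 (r = -0.96). Of the members that ran against the rest, Sdhd, Cox6c and Atp5c1 were lowest in control 2.

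Lists of genes around the complexes were counted in the same way. Of complex I, which passes electrons from NADH to ubiquinone, 28 of 37 listed genes had a probe and 21 were tested. Of these 5 lay above 0 and 16 below, with a median of -0.07, and control 2 was the highest brain in 11. At an unadjusted p below 0.05, 0 complex I genes were higher (1.71% of all tested probes were) and 1 of 21 was lower (2.21% of all), Ndufv1, the flavin-binding subunit that takes electrons from NADH. It had an intensity of 5962, 6265 and 6147 in OPP brains and of 6930.1, 7133 and 7526 in control brains, with a log2 difference of -0.23 (SE 0.09, limma unadjusted p = 0.035, adjusted p = 0.987).

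Subunits and electron carriers that the naming rule leaves out gave 4 tested genes, of which 1 was lower at an unadjusted p below 0.05 (2.21% of all tested probes were). Ndufa4, named for complex I but now placed in complex IV, had an intensity of 6939.5, 8673 and 7072 in OPP brains and of 9388, 10530.2 and 9191 in control brains. Every OPP brain lay below every control brain, as in 5.18% of all tested probes. The log2 difference of Ndufa4 was -0.36 (SE 0.12, 95% interval -0.64 to -0.09, limma unadjusted p = 0.014, adjusted p = 0.987). Of assembly factors 15 were tested, and 1 was lower (beside the same 2.21%), Cox10, an enzyme of heme a synthesis for complex IV (log2 difference -0.24, SE 0.11, limma unadjusted p = 0.049, adjusted p = 0.987).

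Each setting can shift all probes alike, so the members were also set against the median of all tested probes in the same setting. That median takes in tested probes of every intensity and was not matched to the members. The share of member genes below that median was 71.9% as reported and without scaling, 53.1% with quantile normalization, 56.2% with neqc, 53.1% with array weights, 56.2% without control 2 and 78.1% without OPP 3. In no setting did a member have an adjusted p below 0.05, and the lowest was 0.444, with array weights.

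**Figure D4:**
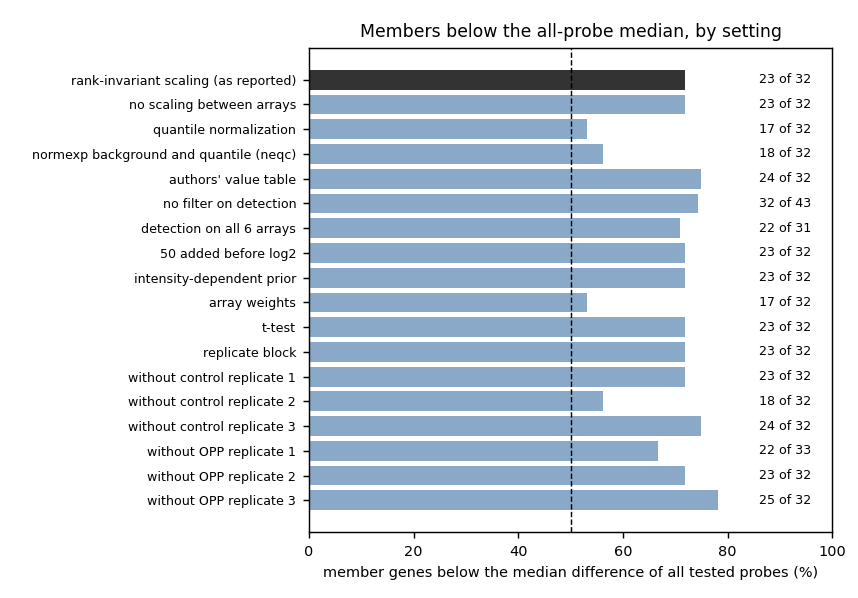
Share of member genes (%) whose OPP minus control difference lay below the median of all tested probes, under each setting, with the count beside each bar (dark bar, values as reported; dashed line, 50%). All bars lie above the line, and those of quantile normalization, neqc, array weights and without control 2 come nearest to it, at 17, 18, 17 and 18 of 32 genes.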

How the data were processed

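Total RNA from the brains of 3 OPP and 3 control mice was hybridized to Illumina arrays. The authors exported probe intensity values from BeadStudio 1.5.1.3, and the deposited table holds 1 intensity and 1 detection p-value for each probe and array, not normalized (median 205 to 245 per array). A second deposited table holds the authors' normalized intensity values, which were found to be a linear rescaling of the first and served as an alternative. Each array has 1 colour, and the number of arrays limits the precision.

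Here each array was scaled by rank-invariant probes (factors 0.902 to 1.06), values below 10 were set to 10, and log2 was taken. Probes with a mean detection level above 0.99 in at least 1 group were tested with limma 3.58.1 in R 4.3.3, with Benjamini-Hochberg adjustment over all 7611. The Illumina Custom error model named in the methods was replaced by limma. All tests are two-sided. The scripts were tested on simulated data. A gene with several probes is represented by its brightest tested probe, and levels of different probes are not compared. Genes are named from the platform annotation.

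Values in each brain are given for members below the unadjusted threshold, the largest differences of each complex, core subunits, tissue isoforms and genes of the c ring. Members and lists were chosen with earlier results of these data known. Other lists were complex I, subunits outside the naming rule, assembly factors, carriers, the citric acid cycle, regulators of mitochondrial biogenesis and cell type markers. Alternatives were other scalings, background corrections, filters and tests, the replicate number as a block, and leaving out each array. Each limma p-value sets the difference between groups against the spread within groups, moderated over all tested probes, in these selected samples. It treats the brains of a group as independent, although they probably shared a cage.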

Additional observations from a re-analysis of the deposited data

How the results depend on the processing

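Of the 34 member probes 0 had an adjusted p below 0.05 under any alternative. The count lower at an unadjusted p below 0.05, 2 as reported, was 0 without scaling, 1 each with quantile normalization, normexp background with quantile (neqc), the authors' value table and detection on all 6 arrays, and 0 to 2 when 1 brain was left out (0 without control 2 and 0 without OPP 3). Of 7611 tested probes 71 were called lower without scaling, 146 with quantile normalization, 167 with neqc and 179 with the authors' value table. It was 142 of 6512 with detection on all 6 arrays. When 1 brain was left out it ran from 115 of 7692 (without OPP 3) to 523 of 7724 (without control 2). Leaving out any 1 brain lost Atp5g3. Without OPP 1 the 2 were Cox6b2 and Sdhc, and without control 3 the 1 was Cox6b1. A t-test, which the methods name for behaviour and qRT-PCR and not for the arrays, called 3 lower, Cox5a besides Cox6b2 and Atp5g3. Of all 7611 tested probes it called 204 lower. Array weights called 1 member higher, Sdhb, against 279 of 7611, and 2 lower, against 468 of 7611. The median of complex IV was -0.018 without scaling and -0.025 with array weights, and ran between -0.15 and -0.044 when 1 brain was left out. The median of complex V was -0.0096 without scaling, -0.0023 with quantile normalization and -0.0020 with neqc, and ran between -0.125 and -0.037. The median of complex II ran between -0.022 and 0.12.

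The replicate number as a block called 1 member lower, Cox6b2, and 0 higher (of all 7611 tested probes 140 lower and 98 higher). Same-numbered brains did not deviate together (correlations -0.27, 0.05 and 0.17), so the numbers were not taken to pair the brains.

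Some differences changed sign. Without scaling, where the median of all tested probes was 0.058 and these genes lay below it, they were 0.019 in Cox7a2, 0.021 in Cox8a and 0.011 in Atp5g1. With quantile normalization they were 0.017 in Cox8a and 0.040 in Atp5b, and with neqc 0.018 in Cox8a and 0.041 in Atp5b. The authors' value table gave -0.0084 in Atp5a1. Array weights gave 0.046 in the brighter probe of Cox6a1, -0.021 in Cox6c, 0.061 in Cox8a, -0.10 in Atp5a1, -0.058 in Atp5c1 and 0.033 in Atp5g1. When 1 brain was left out, the difference ran between -0.081 and 0.016 in Cox7a2, between -0.16 and 0.0086 in Cox6a1, between -0.068 and 0.18 in Cox6c, between -0.16 and 0.10 in Cox8a, between -0.26 and 0.25 in Atp5a1, between -0.11 and 0.11 in Atp5c1, between -0.14 and 0.072 in Atp5g1, between -0.052 and 0.031 in Uqcrc2, between -0.022 and 0.33 in Sdhd and between -0.067 and 0.19 in Uqcrb. The cause was not tested.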

Other observations

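The carriers and porins, citric acid cycle enzymes and biogenesis regulators had 0 genes at an unadjusted limma p below 0.05 in either direction. In all tested probes 1.71% were higher and 2.21% lower. Of the carriers and porins of the mitochondrial membranes 2 of 6 tested lay above 0 and 4 below (median -0.03). Of the citric acid cycle enzymes 7 of 12 lay above and 5 below (median 0.00). Of the regulators of mitochondrial biogenesis 1 of 7 lay above and 6 below (median -0.14). Esrra, an orphan nuclear receptor, had an intensity of 699, 731 and 711 in OPP brains and of 802, 934 and 746 in control brains. Every OPP brain lay below every control brain, as in 5.18% of all tested probes. The log2 difference of Esrra was -0.21 (SE 0.11, limma adjusted p = 0.987). Tfam, which packages mitochondrial DNA, had an intensity of 400, 442 and 507 in OPP brains and of 411, 353 and 423 in control brains, and its log2 difference was 0.18 (SE 0.12). Both genes were chosen after their values were seen.

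All 5 tested granulocyte markers were lower in OPP brains at an unadjusted limma p below 0.05, against 2.21% of all tested probes. All 5 were highest in control 2, as were 17.9% of all tested probes. Ltf was above background in 0 of 3 OPP brains, S100a9 and Camp in 1 and Lcn2 in 2, each against 3 of 3 control brains. Such probes entered the test through the control brains, where they were high, so their direction is no independent result. Of the cerebellar markers 0 of 3 tested passed the threshold, nor did any of 3 erythroid, 7 neuron, 4 astrocyte or 6 oligodendrocyte markers. Of 6 endothelial and mural markers 2 were lower, Esam (log2 difference -0.30) and Vwf (-0.50), while of all 6 markers 4 lay below 0 and 2 above. Of 3 choroid plexus markers 1 was lower, Aqp1 (-0.37, above background in 2 of 3 OPP brains). The others went both ways, Ttr at 0.25 and Clic6 at -0.17. Of 3 muscle markers 1 was higher, Myh7 (0.30), while Acta1 was at 0.06 and Pvalb at -0.39. Among all tested probes 2.21% were lower and 1.71% higher. The neuron markers had a mean log2 intensity of 11.11, 11.19 and 11.22 in OPP brains and of 11.25, 11.14 and 11.18 in control brains. Of these 2 lay above 0 and 5 below (median -0.05). All 6 oligodendrocyte markers lay below 0 (median -0.22), averaging 11.33, 11.41 and 11.41 in OPP brains and 11.77, 11.29 and 11.71 in control brains. All 4 astrocyte markers (median -0.12), 3 erythroid markers (-0.36) and 3 cerebellar markers (-0.45) also lay below 0. The part of cell types in the members' values was not tested.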
